A study of Mus musculus with 14 samples.

Results

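Tight junctions seal the space between epithelial cells of the colon. The genes described here are 8 claudins (Cldn2, Cldn3, Cldn4, Cldn7, Cldn8, Cldn12, Cldn15 and Cldn23), occludin (Ocln) and ZO-1 (Tjp1), 10 of the 37680 genes in the table. They were chosen by their symbols, with earlier results of these data known. RNA-seq was done on epithelium released from the whole mouse colon with EDTA, from wild-type (WT) mice and from Smad4 knockout (Smad4 KO) mice. Knockout mice carried Villin-CreERT2 and Smad4 f/f, so that Cre, driven by the villin promoter of intestinal epithelial cells, deleted Smad4 after intraperitoneal tamoxifen on 4 consecutive days. The 4 groups were WT on water (n = 4), Smad4 KO on water (n = 4), WT after 3 d of 2.5% DSS (n = 3) and Smad4 KO after 3 d of 2.5% DSS (n = 3). DSS is a sulfated polysaccharide given in drinking water that injures the colonic mucosa. The mice were adults, matched for age and sex, and the sources used here do not state the strain or whether animals were pooled. The methods mention Villin-CreERT2 in controls as well, but do not say which alleles the WT mice of these libraries carried or whether they received tamoxifen.

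Claudins are multi-pass membrane proteins whose extracellular loops meet those of the neighbouring cell and set which ions can cross. Claudin-2 and claudin-15 form pores for small cations, whereas claudin-3, claudin-4, claudin-7 and claudin-8 are counted among the sealing claudins of the colon. Occludin is a membrane protein of the same strands, and ZO-1 is a cytoplasmic scaffold that ties the strands to the actin cytoskeleton. In the colon, claudin-2 is known mainly from the crypt, and sealing claudins are prominent towards the luminal surface.

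The knockout was first checked on Smad4 itself, the co-SMAD of TGF-β and BMP signaling. Levels are given as CPM, read counts scaled to library size by TMM and computed from the deposited counts. Smad4 had 118 to 159 CPM in the 4 WT libraries on water, 35.1 to 46.8 CPM in Smad4 KO replicates 2 to 4 on water, 170 to 182 CPM in WT after DSS and 40.4 to 43.9 CPM in Smad4 KO after DSS. The library labelled Smad4 KO water replicate 1 had 158 CPM, within the WT range. It was kept under its label, and the tests that rest on it were also made on the other 13 libraries. The legends of the study count fewer Smad4 KO replicates on water than were deposited and do not say which were used. Total counts ran from 12882827 to 26087231, and mitochondrial genes held 21.4% to 32.8% of the counts in WT water replicates 3 and 4 and Smad4 KO water replicate 4, against 4.05% to 8.23% in the other 11 libraries. The 7 pan-epithelial markers summed to between 11222 and 18205 CPM, and the 6 endothelial markers to at most 3.53 CPM, with no read of Tie1 in any library. Other non-epithelial markers were higher. The 6 myeloid markers summed to 96.5 to 216 CPM, of which Cd14 alone had 86.7 to 205 CPM. The 5 smooth muscle markers summed to 11.8 to 22.0 CPM and the 6 lymphoid markers to 5.05 to 18.2 CPM. The tests are edgeR quasi-likelihood tests over 15127 genes with a Benjamini-Hochberg threshold of 0.05. Here ± gives the standard deviation (SD) and SE is the standard error of a log2 fold change. Nothing in the labels says that the libraries of a group came from separate animals, and the p-values measure only the spread between these libraries. In bulk epithelium, fewer cells of a type and less RNA per cell cannot be told apart.

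All 10 genes passed the filter on low counts. Levels of different genes were compared as CPM per kilobase of exonic length. In WT epithelium on water, Cldn3 had the highest level, at 706 ± 103 CPM per kilobase (SD, n = 4), followed by Cldn7 with 549 ± 80.3 CPM per kilobase (SD, n = 4). Their library ranges overlapped (609 to 851 for Cldn3, and 479 to 656 for Cldn7). A middle group held the pore-forming Cldn15 at 93.4 ± 21.3, Cldn2 at 68.4 ± 24.8 and the sealing Cldn8 at 50.7 ± 21.6 CPM per kilobase (SD, n = 4), whose ranges overlapped with each other. The lowest group was made of Cldn23, Ocln, Cldn12, Cldn4 and Tjp1, with means from 10.4 CPM per kilobase for Tjp1 to 17.1 CPM per kilobase for Cldn23. No library of WT on water placed a gene of 1 of these 3 groups within the range of the next group. In Smad4 KO after DSS the order at the top was different, with 433 ± 18.2 CPM per kilobase for Cldn7 and 385 ± 37.5 for Cldn3 (SD, n = 3), and the ranges overlapped again (415 to 451, and 351 to 426).

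The promoters of the 3 genes that passed the test, and of Cldn4, the neighbour of Cldn3, are shown because Cldn3 and Cldn4 lie 39280 bases apart on chromosome 5 and differed in direction on water. The letters are the 250 bases before the RefSeq transcription start in GRCm38.p6, 5′ to 3′ on the strand of the gene, and the read counts themselves were made on mm9. Capitals mark 3 motifs searched on both strands, namely CAGAC, the core of SMAD binding, CAGGTG, an E-box read by factors of the Snail and Zeb families, and GGGCGG, the GC box of Sp factors. The windows are chr5:134985964-134986213 on the plus strand for Cldn3, and on the minus strand chr5:134946935-134947184 for Cldn4, chr5:5514977-5515226 for the first of 3 listed starts of Cldn12 and chr7:65371245-65371494 for Tjp1.
Cldn3: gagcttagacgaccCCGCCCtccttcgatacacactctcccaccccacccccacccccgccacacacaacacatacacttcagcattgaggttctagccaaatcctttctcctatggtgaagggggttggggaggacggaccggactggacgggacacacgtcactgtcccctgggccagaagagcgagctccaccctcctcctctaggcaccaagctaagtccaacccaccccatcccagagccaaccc
Cldn4: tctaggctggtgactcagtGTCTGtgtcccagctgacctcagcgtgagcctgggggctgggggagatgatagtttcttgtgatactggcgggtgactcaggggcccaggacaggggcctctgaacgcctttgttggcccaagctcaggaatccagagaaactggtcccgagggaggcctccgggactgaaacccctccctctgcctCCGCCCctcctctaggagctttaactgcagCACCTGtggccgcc
Cldn12: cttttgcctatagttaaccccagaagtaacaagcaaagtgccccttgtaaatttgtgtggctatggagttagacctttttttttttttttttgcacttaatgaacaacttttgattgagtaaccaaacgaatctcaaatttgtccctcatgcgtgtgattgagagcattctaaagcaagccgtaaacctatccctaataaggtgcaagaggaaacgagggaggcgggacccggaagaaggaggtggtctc
Tjp1: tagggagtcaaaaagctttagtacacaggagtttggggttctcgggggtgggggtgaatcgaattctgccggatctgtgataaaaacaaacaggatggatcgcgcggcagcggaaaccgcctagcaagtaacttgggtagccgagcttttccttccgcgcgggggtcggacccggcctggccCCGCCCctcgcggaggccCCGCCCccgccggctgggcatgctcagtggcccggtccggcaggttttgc
Cldn4 held 1 match to each of the 3 motifs. Cldn3 held 1 GC box and Tjp1 held 2, without a match to the other motifs, and this Cldn12 window held none of the 3. Over the 32851 promoter windows of the same length, 42.2% held CAGAC, 17.2% held CAGGTG and 32.7% held GGGCGG, with 174 overlaps between matches of different motifs. Of the 8 genes with a listed start, Cldn4 and Cldn7 held CAGAC, Cldn4, Cldn7 and Ocln held CAGGTG, and 7 held GGGCGG at 1 start or more. These are matches of letters and not binding sites.

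The comparison of Smad4 KO with WT on water asks how the junction genes differ between the genotypes without DSS. Since Cre and tamoxifen in the WT mice are not stated, their part and that of Smad4 loss cannot be told apart. Cldn12 and Tjp1 were higher and Cldn3 was lower in the epithelium labelled Smad4 KO, 3 of 10 genes, where edgeR called 8.44% of all genes tested in either direction, 4.83% higher and 3.6% lower. Over the 10 genes, 7 had a positive log2 fold change, and the median was 0.39 beside -0.01 over all genes. In the 13 other libraries than that labelled Smad4 KO water replicate 1, edgeR called 2 of 10, Cldn12 and Tjp1, beside 7.66% of all genes, 4.06% higher and 3.6% lower. With only the 8 water libraries in the model, 0 of 10 passed, and 1 gene of 14568 was called at all (0.00686%), with adjusted p-values (edgeR) of 0.15 to 0.17 for the 3 genes.

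**Figure D1:**
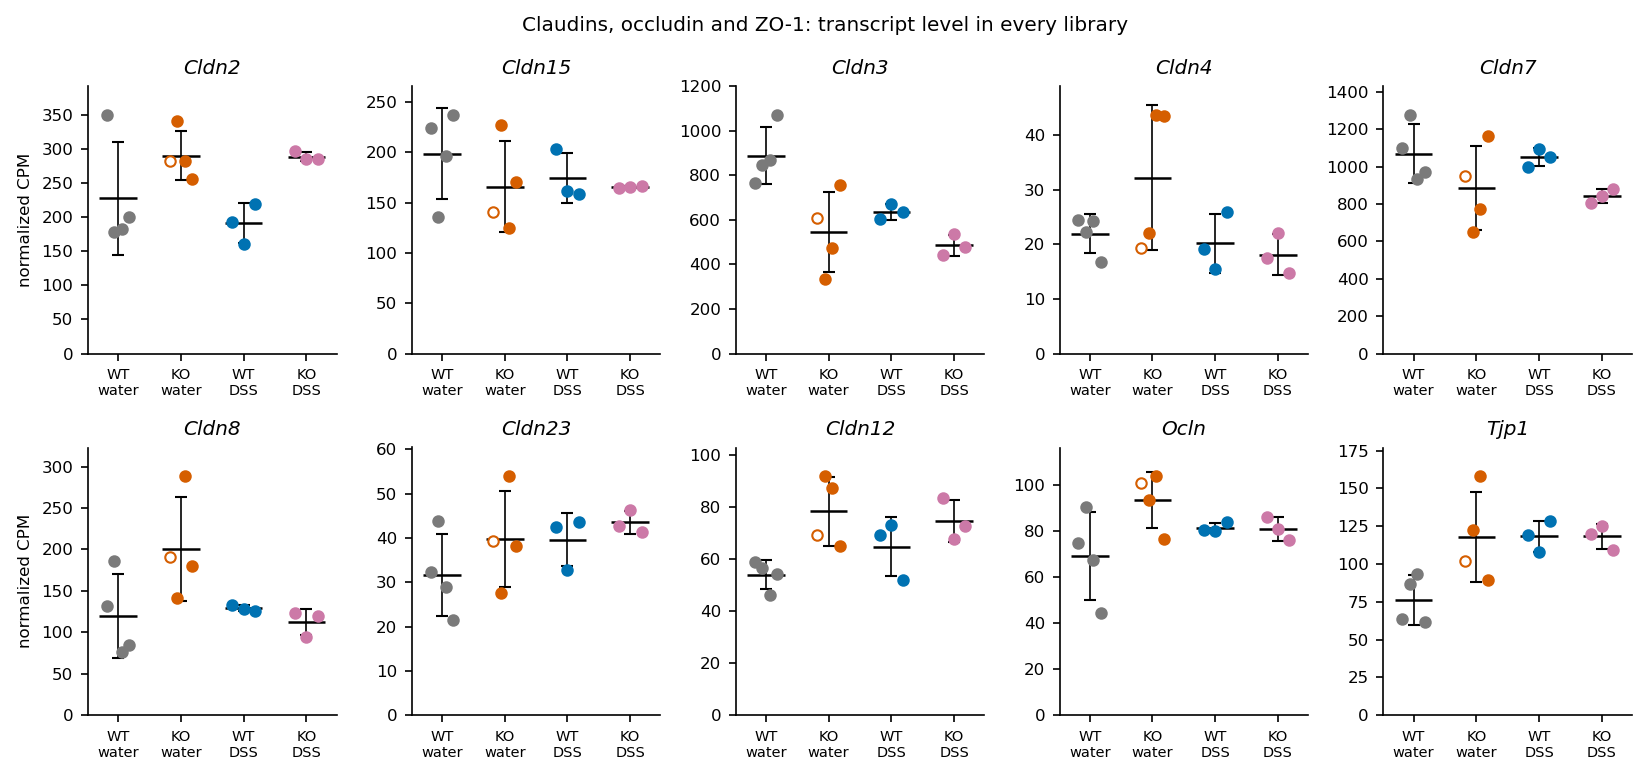
CPM of the 10 genes in each of the 14 libraries, one panel per gene, with an axis from 0 in each. Points are libraries, the horizontal line is the group mean and the error bar the standard deviation, and the open circle is the library labelled Smad4 KO water replicate 1. Cldn3 on water runs from 767 to 1072 CPM in WT and from 336 to 757 CPM in Smad4 KO.

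Among the pore-forming claudins, neither passed the test on water. Cldn2 (ENSMUSG00000047230, chromosome X of mm9 from 136335367 to 136345925) had 177 to 350.0 CPM in WT and 255 to 340.3 CPM in Smad4 KO, with a log2 fold change of 0.35 (SE 0.19, adjusted p = 0.24 by edgeR) with 14 libraries and 0.36 (SE 0.22, adjusted p = 0.28 by edgeR) with 13. Its WT libraries were uneven, since replicate 1 had 350.0 CPM and the other 3 had at most 199.98 CPM. Without WT replicate 1, the log2 fold change of Cldn2 was 0.63 (adjusted p = 0.036 by edgeR). Cldn15 (ENSMUSG00000001739, chromosome 5 from 137442486 to 137451728) had 135 to 237 CPM in WT and 125 to 228 CPM in Smad4 KO, so that the groups overlapped over most of their range, with a log2 fold change of -0.26 (SE 0.19) with 14 libraries and -0.19 (SE 0.21) with 13.

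Among the sealing claudins, Cldn3 (ENSMUSG00000070473, chromosome 5 from 135462084 to 135463342, a gene of 1 exon) was lower in the epithelium labelled Smad4 KO. In WT on water it had 767, 845, 869 and 1072 CPM in replicates 1 to 4. In the libraries labelled Smad4 KO it had 608 CPM in replicate 1 and 336, 476 and 757 CPM in replicates 2 to 4. The groups did not overlap, as in 5.2% of all genes in this direction (7.66% among the 13 libraries), although Smad4 KO replicate 4 was only just below the lowest WT library. The log2 fold change was -0.71 (SE 0.20, adjusted p = 0.044 by edgeR) with 14 libraries and -0.77 (SE 0.22, adjusted p = 0.051 by edgeR) with 13. A 40-base stretch of its exon is shared with the lincRNA Wbscr25 on the opposite strand, and the sources used here do not state whether strand was used in counting.

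Cldn4 (ENSMUSG00000047501, chromosome 5 from 135420996 to 135422804) and Cldn7 (ENSMUSG00000018569, chromosome 11 from 69778281 to 69781387) were the sealing claudins with the lowest and, after Cldn3, the highest level per length. Cldn4 had 16.8 to 24.4 CPM in WT and 19.4 to 43.8 CPM in Smad4 KO on water, where replicates 3 and 4 were at 43.8 and 43.6 CPM and the other libraries of the group at or below 22.1 CPM. The log2 fold change of Cldn4 was 0.55 (SE 0.26, adjusted p = 0.17 by edgeR) with 14 libraries and 0.73 (adjusted p = 0.076 by edgeR) with 13. Cldn7 had 932 to 1279 CPM in WT and 651 to 1167 CPM in Smad4 KO, with a log2 fold change of -0.27 (SE 0.17) with 14 libraries and -0.31 (SE 0.19) with 13, and an adjusted p of 0.30 by edgeR in both. Cldn7 was called lower without the 3 libraries of high mitochondrial share (log2 fold change -0.59, adjusted p = 0.029 by edgeR, 15.9% of all genes called). On water that setting keeps only WT replicates 1 and 2 and the libraries labelled Smad4 KO replicates 1 to 3.

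Cldn8 (ENSMUSG00000050520, chromosome 16 from 88561073 to 88563428) had 76.1 to 186 CPM in WT and 142 to 289 CPM in Smad4 KO on water. It had the largest log2 fold change of the 10 genes in this comparison, 0.74 (SE 0.25), and missed the threshold (adjusted p = 0.068 with 14 libraries and 0.091 with 13, by edgeR). DESeq2 called it (log2 fold change 0.75, adjusted p = 0.027, 19.4% of all genes called). WT replicates 3 and 4, at 76.1 and 84.2 CPM, were below WT replicates 1 and 2, at 131 and 186 CPM. Cldn23 (ENSMUSG00000055976, chromosome 8 from 36887766 to 36889613) ran from 21.4 to 43.8 CPM in WT and from 27.5 to 54.0 CPM in Smad4 KO, with a log2 fold change of 0.33 and no call in either model.

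Cldn12 (ENSMUSG00000046798, chromosome 5 from 5505109 to 5514958), a claudin that lacks the ZO-binding motif at the C terminus of most other claudins, was higher in the epithelium labelled Smad4 KO. WT on water had 59.0, 56.6, 46.0 and 54.2 CPM in replicates 1 to 4. The libraries labelled Smad4 KO had 69.3 CPM in replicate 1 and 91.8, 87.1 and 64.9 CPM in replicates 2 to 4. Every library labelled Smad4 KO was above every WT library, as in 5.18% of all genes in this direction (7.26% with the library labelled Smad4 KO water replicate 1 left out). The log2 fold change was 0.54 (SE 0.15, adjusted p = 0.041 by edgeR) with 14 libraries and 0.59 (SE 0.16, adjusted p = 0.041 by edgeR) with 13.

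Occludin (ENSMUSG00000021638, chromosome 13 from 101266462 to 101322673) had 44.3 to 90.3 CPM in WT and 76.3 to 103.7 CPM in Smad4 KO on water, with a log2 fold change of 0.43 (SE 0.17, adjusted p = 0.11 by edgeR) with 14 libraries and 0.40 (SE 0.19, adjusted p = 0.18 by edgeR) with 13. Tjp1 (ENSMUSG00000030516, chromosome 7 from 72441051 to 72516125), the scaffold ZO-1, was higher in the epithelium labelled Smad4 KO. WT on water had 63.4, 86.7, 93.6 and 61.3 CPM of Tjp1 in replicates 1 to 4. The libraries labelled Smad4 KO had 101.8 CPM in replicate 1 and 122, 158 and 89.4 CPM in replicates 2 to 4. The groups overlapped by 1 library on each side, Smad4 KO replicate 4 being below WT replicate 3. The log2 fold change of Tjp1 was 0.63 (SE 0.18, adjusted p = 0.042 by edgeR) with 14 libraries and 0.69 (SE 0.19, adjusted p = 0.042 by edgeR) with 13.

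**Figure D2:**
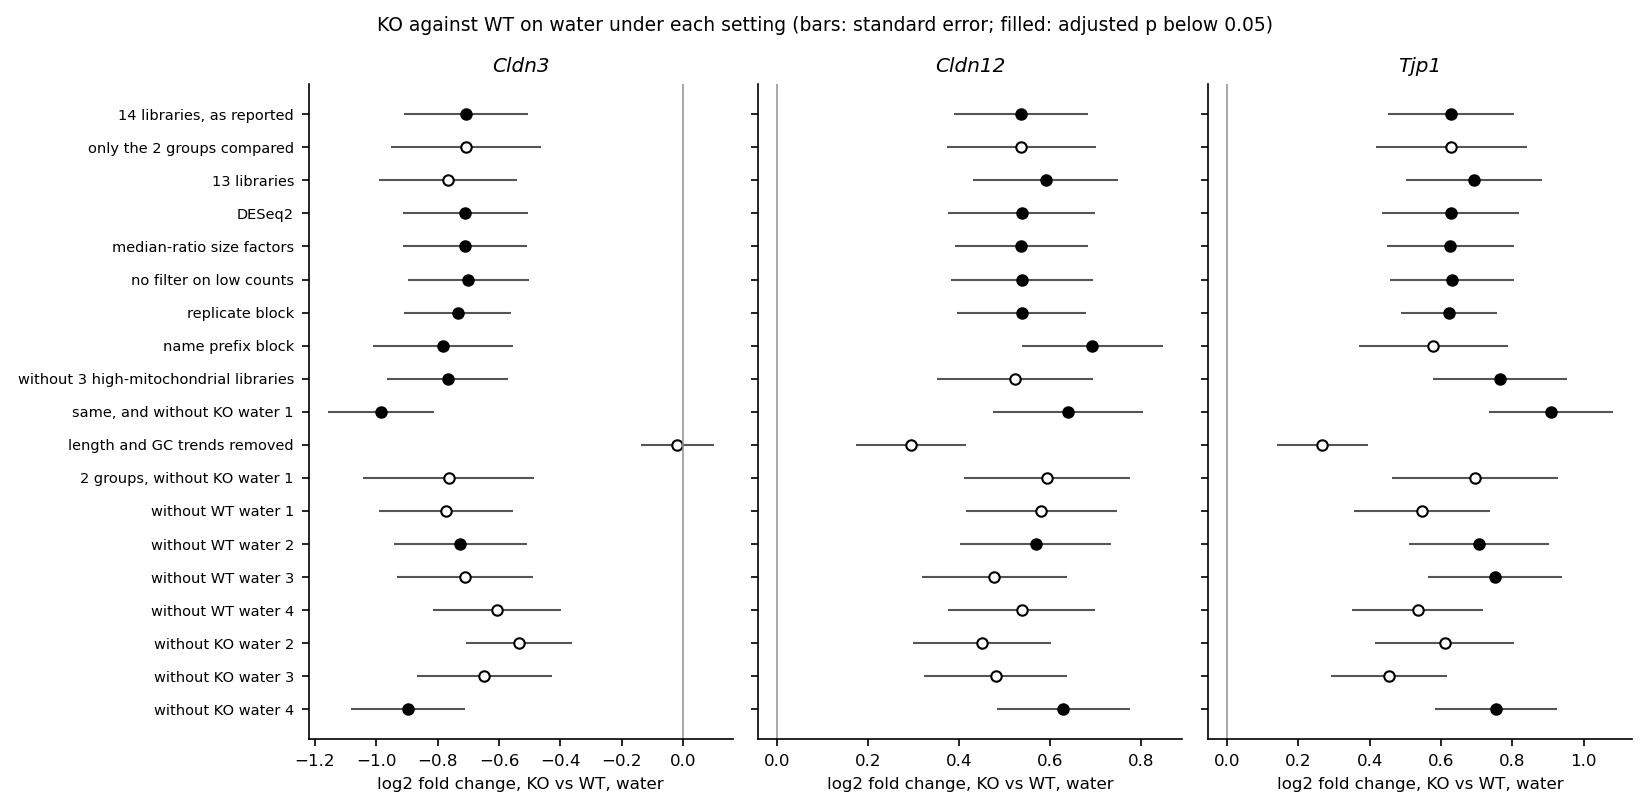
Log2 fold change of Cldn3, Cldn12 and Tjp1 in Smad4 KO against WT on water (x axis) under each setting (y axis), with the standard error as a bar. Filled points have an adjusted p below 0.05, which held for Cldn3 and Cldn12 in 9 and for Tjp1 in 10 of 18 alternatives. The sign was the same in all 18 for each, but Cldn3 was near 0 after removal of length and GC trends (-0.02, adjusted p = 0.95 by edgeR).

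The 3 calls on water depended on which libraries were in the model. Without WT replicate 4, Smad4 KO replicate 2 or Smad4 KO replicate 3, 0 of the 10 genes passed, and 4, 16 and 5 of all genes did (0.0265%, 0.106% and 0.0333%). Without WT replicate 1 only Cldn2 passed (5.43% of all genes called), and without WT replicate 3 only Tjp1 (3.62%). Without WT replicate 2 (9.43%) or Smad4 KO replicate 4 (27.3%), 5 passed, namely the 3 genes with Cldn8 and Ocln. Fold changes on water also followed gene length: the median over the 500 tested genes nearest in exonic length was -0.28 at the 1259 bases of Cldn3, 0.02 at the 4075 bases of Cldn12 and 0.24 at the 7360 bases of Tjp1. When trends with length and GC content were removed, the log2 fold changes were -0.02 for Cldn3, 0.29 for Cldn12 and 0.27 for Tjp1, and 0 of 10 passed (0.456% of all genes were called). Without the 3 libraries of high mitochondrial share, Cldn3 (log2 fold change -0.77, adjusted p = 0.025 by edgeR) and Tjp1 (0.77, adjusted p = 0.020 by edgeR) were called. Cldn12 (0.52, adjusted p = 0.055 by edgeR) was not, and 15.9% of all genes were called. The library names carry letter prefixes. On water this setting keeps only WT replicates 1 and 2, of prefix D, and the libraries labelled Smad4 KO replicates 1 to 3, of other prefixes. Genotype and prefix cannot be told apart in it. A further model had a block of prefix D against all other prefixes together. With that block, Tjp1 was not called (log2 fold change 0.58, adjusted p = 0.088 by edgeR, 7.63% of all genes called), and Cldn8 was (1.11, adjusted p = 0.034 by edgeR). The 8 fibroblast markers summed to 8.96 to 15.1 CPM in WT and 12.1 to 36.8 CPM in Smad4 KO on water, where the library labelled replicate 1 was at 19.6 CPM, and 2 of the 6 tested were called higher with 14 and with 13 libraries. The 8 surface colonocyte markers summed to 5622 to 6901 CPM in WT and 4272 to 6402 CPM in Smad4 KO, the lowest being the library labelled replicate 1 and the next 4700.3 CPM. With 14 libraries 1 of 8 was called lower, and with 13 it was 0 of 8. The 7 crypt base markers summed to 202 to 278 CPM in WT and 225 to 281 CPM in Smad4 KO, the highest being the library labelled replicate 1 and the next 246 CPM. With 14 libraries 2 of 7 were called higher and 0 lower, and with 13 it was 2 higher and 3 lower. The part of these in the results was not tested.

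After DSS, the comparison of Smad4 KO with WT asks for differences at an early stage of injury. None of the 10 genes passed edgeR's adjusted threshold, beside 2 of all genes (0.0132%), and at an unadjusted p below 0.05 there was 1 of the 10, Cldn2, beside 4.43% of all genes. DESeq2 called 0 of the 10 and 0.325% of all genes. Cldn2 had 285 to 296 CPM in the 3 Smad4 KO libraries and 160 to 219 CPM in the 3 WT libraries. The groups did not overlap, as in 10.4% of all genes in this direction. The log2 fold change of Cldn2 was 0.60 (SE 0.22, adjusted p = 0.92 by edgeR) with 14 libraries, 0.60 (SE 0.12, adjusted p = 0.064 by edgeR) with the 6 DSS libraries alone, and 0.71 (SE 0.13, adjusted p = 0.069 by edgeR) with the 5 that share a name prefix (0.321% of all genes called).

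Of the sealing claudins after DSS, Cldn3, Cldn7 and Cldn8 had no overlap between the groups, with every Smad4 KO library below every WT library, as in 11.4% of all genes. Cldn3 had 442 to 536 CPM in Smad4 KO and 602 to 673 CPM in WT, a log2 fold change of -0.39 (SE 0.23, adjusted p = 1.00 with 14 libraries and 0.15 with the 6, by edgeR). Cldn7 had 808 to 879 CPM in Smad4 KO and 1001 to 1096 CPM in WT, a log2 fold change of -0.32 (SE 0.20, adjusted p = 1.00 with 14 libraries and 0.19 with the 6, by edgeR). Cldn8 had 93.8 to 123 CPM in Smad4 KO and 126 to 133 CPM in WT, and its log2 fold change was within 1 standard error of 0 (-0.20, SE 0.29). Cldn4, Cldn15, Cldn23, Ocln and Tjp1 also differed by less than 1 standard error, and for Tjp1 the means were 118 ± 8.08 CPM in Smad4 KO and 118 ± 10.2 CPM in WT (SD, n = 3). Cldn12 had 67.5 to 83.5 CPM in Smad4 KO and 52.0 to 73.1 CPM in WT, so that the groups overlapped. Its log2 fold change was 0.20 with 14 libraries and 0.21 with the 6 (adjusted p = 0.50 by edgeR with the 6). In the same libraries the 7 crypt base markers summed to 185 to 204 CPM in Smad4 KO and 122 to 168 CPM in WT, and the 8 surface colonocyte markers to 5172 to 5610 CPM and 5726 to 6969 CPM, with 1 of 7 called higher and 0 of 8 called. Of the 7 crypt base markers, only 4 had a positive log2 fold change, and the median was 0.01. Smoc2 had 73.2 to 81.2 CPM in Smad4 KO and 19.5 to 32.4 CPM in WT. Ephb3 had 28.6 to 39.8 CPM in Smad4 KO and 37.9 to 50.1 CPM in WT. The 8 fibroblast markers summed to 16.2 to 24.0 CPM in Smad4 KO and 9.50 to 13.01 CPM in WT, where 1 of the 8, Lum, had no reads. The part of these in the claudin values was not tested.

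**Figure D3:**
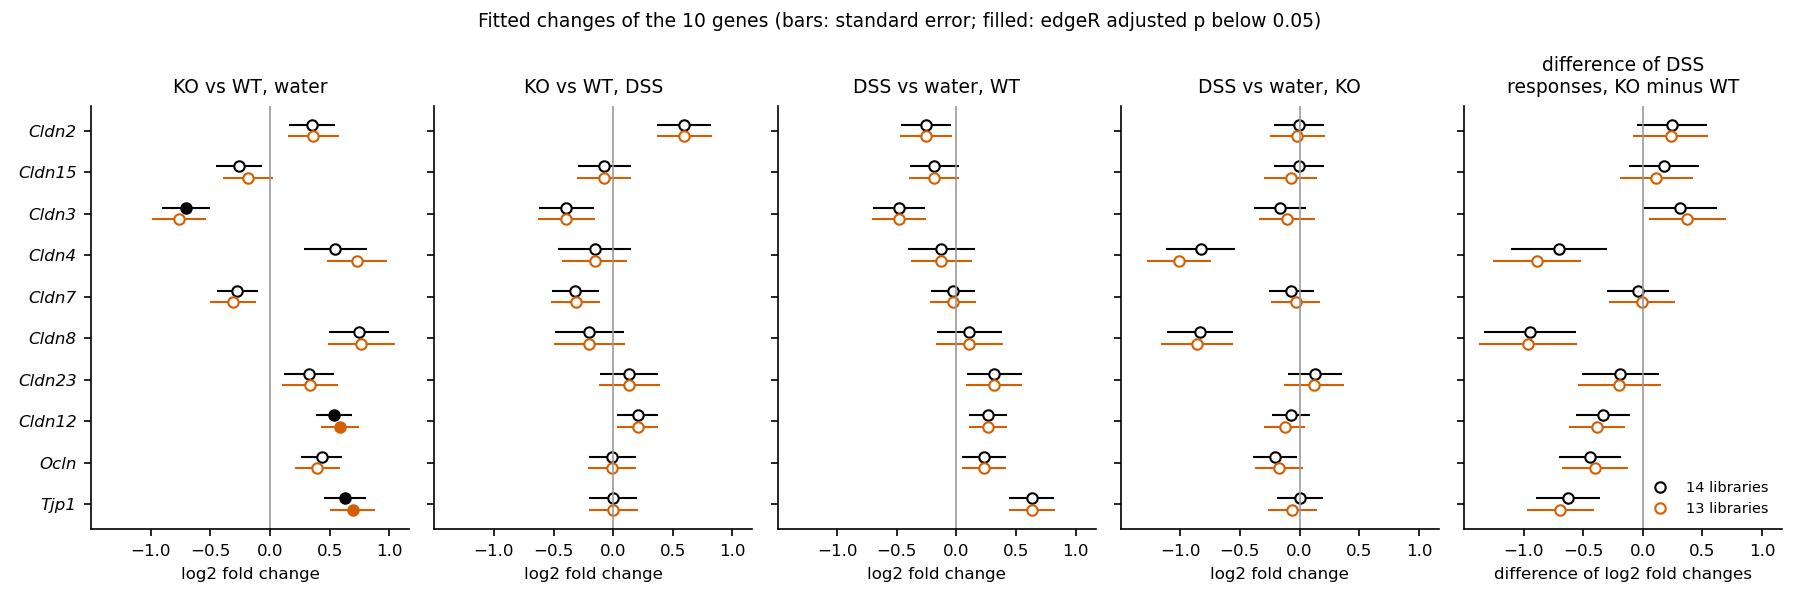
Log2 fold changes of the 10 genes (x axis) in the 4 comparisons of groups and, in the last panel, the difference of the DSS responses, with the standard error as a bar. Black is the model of all 14 libraries, orange the model of 13 that leaves out the library labelled Smad4 KO water replicate 1, and filled points have an adjusted p below 0.05, which occur only for Cldn3, Cldn12 and Tjp1 on water.

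The response to DSS was compared with water within each genotype; the comparisons share their water or DSS libraries with those above. In WT, edgeR called 0 of 15127 genes, and 21% had an unadjusted p below 0.05, among them Tjp1 and Cldn3 of the 10. Tjp1 had 119, 108 and 128 CPM in WT replicates 1 to 3 after DSS, all above the 61.3 to 93.6 CPM on water, as in 12.8% of all genes in this direction. Its log2 fold change was 0.63 (SE 0.19, adjusted p = 0.12 by edgeR), and DESeq2 called it (log2 fold change 0.63, adjusted p = 0.047, 6% of all genes called). Under the 18 alternatives the log2 fold change of Tjp1 ran from 0.41 to 0.76, with this 1 call. The median over the 500 tested genes nearest in exonic length was 0.15 for Tjp1 and -0.21 for Cldn3. Cldn3 had 602, 673 and 636 CPM after DSS, all below the 767 to 1072 CPM on water, as in 11.6% of all genes in this direction. The log2 fold change of Cldn3 was -0.48 (SE 0.22, adjusted p = 0.22 by edgeR), and it was 0.04 after removal of the length and GC trends. Cldn12 had 69.1, 73.1 and 52.0 CPM after DSS, with the third library inside the water range. Mitochondrial genes held 30.6% and 32.8% of the counts in WT water replicates 3 and 4, and 4.54% to 6.87% in WT after DSS. The part of this in the values was not tested.

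In Smad4 KO, edgeR called 10 of all genes between DSS and water (0.0661%) and none of the 10 junction genes. DESeq2 called 0.506% of all genes and 0 of the 10. At an unadjusted p below 0.05 there were 2, Cldn4 and Cldn8, beside 8.4% of all genes. Cldn8 had 93.8 to 123 CPM after DSS and 142 to 289 CPM on water, without overlap, as in 4.28% of all genes in this direction. With the library labelled Smad4 KO water replicate 1 left out, Cldn4 did not overlap either (6.47% of all genes in this direction). For Cldn8, the log2 fold change was -0.84 (SE 0.28, adjusted p = 0.47 by edgeR) with 14 libraries and -0.86 (SE 0.30, adjusted p = 0.48 by edgeR) with 13. Cldn4 had 14.7 to 22.1 CPM after DSS and 19.4 to 43.8 CPM on water, with a log2 fold change of -0.83 (SE 0.29, adjusted p = 0.48 by edgeR) with 14 libraries and -1.01 (SE 0.27, adjusted p = 0.32 by edgeR) with 13. Cldn3 had 442, 536 and 478 CPM in replicates 1 to 3 after DSS, inside its range on water. Cldn12 had 83.5, 67.5 and 72.8 CPM and Tjp1 had 120.0, 125 and 109 CPM, also inside their ranges on water.

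The difference between the DSS responses of Smad4 KO and WT was tested as 1 term. It was called for 1 of 15127 genes (0.00661%) and for none of the 10. At an unadjusted p below 0.05 there were 2 of the 10, beside 7.5% of all genes. DESeq2 called 0.0169% of all genes and 0 of the 10. The most negative values were those of Cldn8, at -0.94 on the log2 scale (SE 0.39, adjusted p = 0.64 by edgeR), Cldn4, at -0.70 (SE 0.40, adjusted p = 0.68 by edgeR), and Tjp1, at -0.63 (SE 0.27, adjusted p = 0.64 by edgeR). With 13 libraries they were -0.97, -0.88 and -0.69, with edgeR adjusted p-values of 0.57. Under the alternatives run, Tjp1 passed only when the 3 libraries of high mitochondrial share and the library labelled Smad4 KO water replicate 1 were all left out (difference -0.90, adjusted p = 0.042 by edgeR, 5.33% of all genes called). The wider list of junction genes had no call in the same test.

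Across the 14 libraries the 10 genes did not move as 1 group. The values that follow are Pearson correlations of log2 CPM over libraries that share groups, depth and sample quality, and are given as a description. Cldn3 and Cldn7, the claudins with the highest levels, had r = 0.77. Ocln had r = 0.72 with Cldn8, 0.72 with Cldn23 and 0.70 with Tjp1. Cldn3 had r = -0.85 with Cldn12, -0.76 with Tjp1 and -0.66 with Ocln, and the pore-forming Cldn15 had r = -0.79 with Cldn23. Cldn3 and Cldn4, neighbours on chromosome 5, had r = 0.02.

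**Figure D4:**
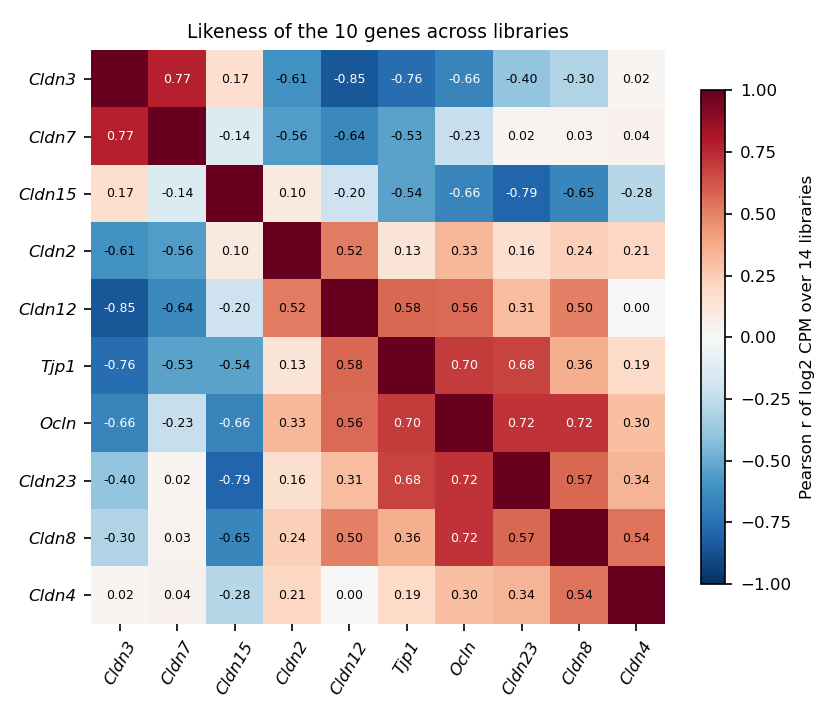
Pearson r of log2 CPM over the 14 libraries for each pair of the 10 genes, from -1 (blue) to 1 (red). The pair Cldn3 and Cldn7 has r = 0.77, and the pair Cldn3 and Cldn12 has r = -0.85.

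Among all tested genes, those most like each of the 10 over the 14 libraries were Cmah, A4gnt and Chrnb4 for Cldn2 (r from 0.85 to 0.91) and Cgref1, Emilin1 and Gins3 for Cldn15 (0.83 to 0.88). For the sealing claudins they were Acaa1a, Fastk and Adck4 for Cldn3 (0.97 to 0.98), Epb4.1l4b, Trib1 and Pmaip1 for Cldn4 (0.79 to 0.82), Tradd, Alkbh7 and 1110007C09Rik for Cldn7 (r of 0.93 for each), and Bmp6, Dusp6 and Necap1 for Cldn8 (0.83 to 0.88). Those of Cldn23 were Sgpl1, 9430091E24Rik and Bcar3 (0.91 to 0.95). For Cldn12 they were Lemd3, 2700078E11Rik and Rap1b (0.92 to 0.94), for Ocln Slc7a2, Map3k1 and Map4k3 (0.95 to 0.96), and for Tjp1 Arfgef2, Arhgap32 and Sc5d (0.97). None of the 10 was among the 3 closest genes of another.

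A wider list held 64 further genes of the junction, of which 63 were matched and 48 tested. It covered other claudins, tricellular and MARVEL proteins, immunoglobulin adhesion proteins, plaque scaffolds, polarity proteins, regulators and proteases, and transcription factors. On water 3 of 48 (6.25%) passed, beside 8.44% of all genes, with 1 higher and 2 lower in Smad4 KO. None of the 48 passed in the other 4 comparisons with all 14 libraries (edgeR). None of the 5 tricellular and MARVEL proteins, 4 adhesion proteins, 13 plaque scaffolds, 11 regulators and proteases or 4 transcription factors tested passed on water with 14 or with 13 libraries.

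Prkcz, the atypical protein kinase C ζ of the Par polarity complex, had 74.2 to 92.9 CPM in WT and 48.5 to 65.1 CPM in Smad4 KO on water. Its log2 fold change was -0.61 (SE 0.13, adjusted p = 0.025 by edgeR) with 14 libraries and -0.71 (adjusted p = 0.014 by edgeR) with 13. Crb3, an apical polarity protein of the Crumbs complex, had 100.3 to 126 CPM in WT and 50.7 to 105.5 CPM in Smad4 KO, a log2 fold change of -0.59 (SE 0.18, adjusted p = 0.048 by edgeR) with 14 libraries and an edgeR adjusted p of 0.073 with 13. Prkcz and Crb3 both missed the threshold with only the 8 water libraries (adjusted p = 0.15 and 0.17 by edgeR).

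Only 3 of the 15 other claudins passed the filter, and none of the other 12 had more than 10 counts in a library. Cldn14 had 7.29 to 20.5 CPM in WT on water, 4.11, 4.81 and 4.81 CPM in Smad4 KO replicates 2 to 4 and 10.8 CPM in the library labelled replicate 1. It was called lower with 13 libraries and not with 14 (log2 fold change -1.44, SE 0.30, adjusted p = 0.017 by edgeR), beside -1.02 and an edgeR adjusted p of 0.059 with 14. After DSS it had 7.58 to 9.19 CPM in Smad4 KO and 5.52 to 6.76 CPM in WT.

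Cldn10, a claudin with a cation-selective and an anion-selective isoform, lies outside the rule for named genes because of its low counts and was named after its values were seen. It had 0 to 7 counts in WT on water, 4 counts in the library labelled Smad4 KO replicate 1 and 26, 48 and 32 counts in replicates 2 to 4. After DSS it had 2, 3 and 7 counts in WT and 33, 59 and 30 counts in Smad4 KO. The 6 Smad4 KO libraries other than replicate 1 on water were thus at 1.52 to 2.90 CPM, and the WT libraries and replicate 1 at or below 0.310 CPM. On water the log2 fold change was 3.60 (SE 0.88, adjusted p = 0.032 by edgeR) with 14 libraries and 3.97 (SE 0.77, adjusted p = 0.014 by edgeR) with 13. It was not called with only the 8 water libraries (3.63, SE 1.05, adjusted p = 0.15 by edgeR). After DSS it was 3.50 (SE 0.93, adjusted p = 0.47 by edgeR) with 14 libraries and 3.50 (SE 0.49, adjusted p = 0.016 by edgeR, 0.801% of all genes called) with the 6 DSS libraries alone. At counts this low the fitted fold depends on the prior count and is no bound. These counts do not separate its isoforms.

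**Figure D5:**
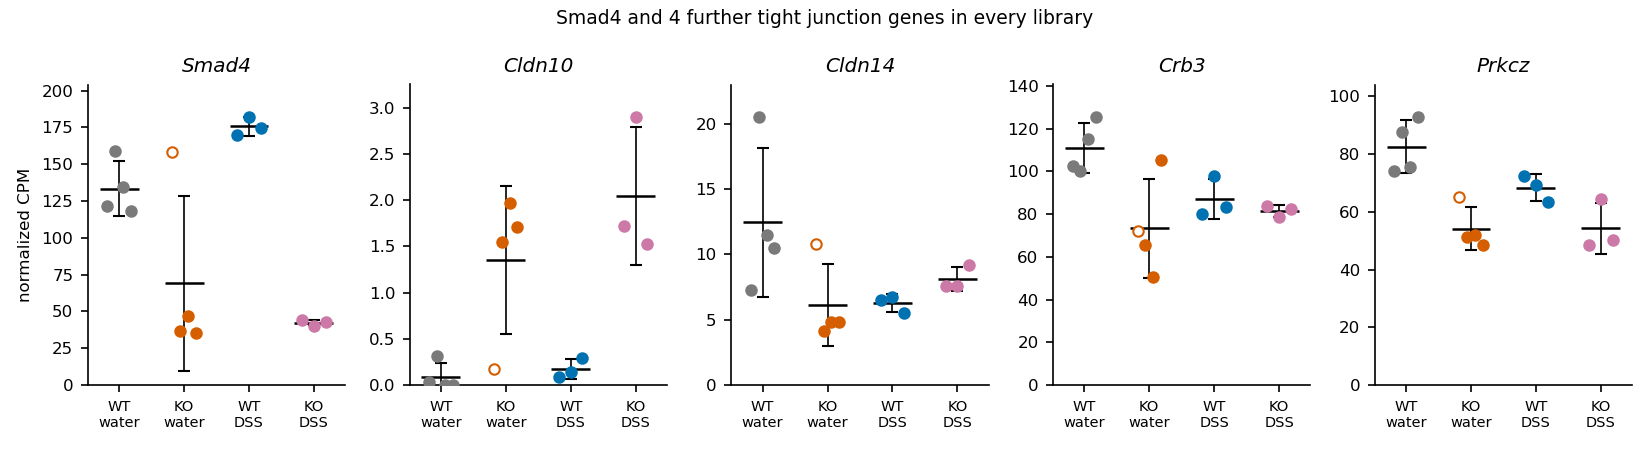
CPM of Smad4 and of Cldn10, Cldn14, Crb3 and Prkcz in each library, drawn as for the 10 genes, with the open circle for the library labelled Smad4 KO water replicate 1. That library lies within the WT water range for Smad4, Cldn10 and Cldn14, at 158, 0.176 and 10.8 CPM.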

How the data were processed

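Gene-level RNA-seq was measured in 14 libraries of mouse colon epithelium. The authors made poly(A) libraries, aligned paired-end reads to mm9 with HISAT2 and counted them per gene with featureCounts, and deposited raw counts of 37680 genes without normalization (14001 had none). The strand setting is not given in the sources used here. Libraries were grouped by their labels. The 10 genes, the wider lists and the tests were chosen with earlier results of these data known.

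Positions and exonic lengths are from GENCODE M1 on mm9 (37310 genes matched), and promoters from RefSeq on GRCm38.p6. From the counts, CPM were computed with TMM factors in edgeR 4.0.16 (R 4.3.3), and the 15127 genes that reached 10 counts in 3 libraries or more entered the quasi-likelihood test, 4 groups in 1 model of 14 libraries, with Benjamini-Hochberg adjustment at 0.05. Alternatives were DESeq2 1.42.0, other scaling and filters, only the groups compared, and each library left out. Further alternatives had a block of replicate number, or a block of name prefix D against all other prefixes together. Loss of high-mitochondrial libraries and removal of length and GC trends (loess of span 0.5) were chosen after seeing the data. The test was checked on simulated counts with the same dispersion for every gene. That check does not cover the uneven libraries or the length trend of these data. Genes named are Smad4, the 10, listed junction genes past the threshold with a mean of at least 50 normalized counts (at most 6 per comparison), and for each of the 10 the 3 genes of highest Pearson r.

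Total counts of 12882827 to 26087231 limit the precision for genes of few counts such as Cldn10, and for the rest the spread between libraries does.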

Additional observations from a re-analysis of the deposited data

Results flagged for a closer look

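The level of Cldn2 in WT water replicate 1, 350.0 CPM, stood apart from the other 3 libraries of its group, which lay between 177 and 199.98 CPM: the gap to the nearest was 0.869 of the range, above Dixon's 95% critical value for 4 samples. This was 1 of 20 groups of 4 tested for the 10 genes, and chance flags about 1 in 20. Leaving out this library moved the log2 fold change of Cldn2 between Smad4 KO and WT on water from 0.35 to 0.63, and that between DSS and water in WT from -0.25 to 0.03.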

How the results depend on the processing

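Of 50 log2 fold changes of the 10 genes, 21 were within 1 standard error of 0, and their direction was not followed across the alternatives. For the other 29, 509 of 558 values under the alternatives kept their direction and their side of the threshold, 27 lost and 13 gained a call, and 9 turned. All 27 losses were of Cldn3, Cldn12 and Tjp1 on water, the only values with a call to lose. These were called in 9, 9 and 10 of 18 alternatives. The 558 values include the fit of 13 libraries both as such and among the libraries left out in turn. On water, the number called was 3, but 0 with only the groups compared, also leaving out the library labelled Smad4 KO water replicate 1, and 0 after removal of length and GC trends, and it ranged from 0 to 5 when each library was left out in turn. In WT, DSS against water had 1 call in DESeq2 (Tjp1), and the difference of the DSS responses had 1 (Tjp1) without the high-mitochondrial libraries and the library labelled Smad4 KO water replicate 1. In the comparisons other than that on water, leaving out each library gave 0 calls (0 to 0).

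The direction turned on water after removal of length and GC trends for Cldn7 (0.10) and Cldn15 (0.056), and with the same setting for Cldn3 in WT between DSS and water (0.043) and in the difference of the DSS responses (-0.24). In WT between DSS and water it also turned for Cldn23 (-0.016) and Ocln (-0.040) with only libraries that share a name prefix, for Ocln without the high-mitochondrial libraries (-0.011, and -0.012 also leaving out the library labelled Smad4 KO water replicate 1), and for Cldn2 when libraries were left out in turn (-0.36 to 0.033). The cause was not tested.

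Over all genes, edgeR called 1276 on water with 14 libraries, 1154 with 13, 1 with the 8 water libraries, 69 after removal of length and GC trends, and DESeq2 called 2631. With replicate number as a block, edgeR called 4 of the 10 on water, Ocln with an adjusted p of 0.020 in addition to Cldn3, Cldn12 and Tjp1, and 2977 of all genes. Libraries of the same number were not more alike in general: 2 of 19 same-number pairs had a correlation of deviations above 0.1, beside 9 of 54 other pairs. The highest, r = 0.35, was that of replicates 4 of WT and Smad4 KO on water, which share a name prefix. No library on water labelled Smad4 KO carries the name prefix of WT replicates 1 and 2, so that comparison has no value within that prefix. WT water replicate 3 shares its prefix with the libraries labelled Smad4 KO water replicates 1 and 2. Differences within the other prefixes were not tested.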
